A study of Rattus norvegicus with 6 samples.

Results

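The transcription factors described here are those that set and carry through the oligodendrocyte fate. They were taken as the entries of the deposited gene table whose symbol equals 1 of 10 names, namely Olig1, Olig2, Sox10, Sox8, Nkx2-2, Nkx6-2, Myrf, Tcf7l2, Zeb2 and Sip1. Of these, 9 had an entry among the 20422 genes of the table, each under 1 gene ID, and all 9 passed the filter on low counts, as did 16182 genes in all. No entry carried the symbol Sip1. That name has been used for Zeb2 and, in the RefSeq table, for Gemin2, so it gives no further member. Gemin2, which acts in assembly of spliceosomal particles, is not a member. It stood at 35.9 ± 1.22 CPM (counts scaled to library size) with cholesterol and 32.4 ± 0.933 CPM with PBS (SD, n = 3 each), and did not pass the test (edgeR adjusted p = 0.0562).

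Oligodendrocytes arise from dividing precursors that pass through a committed stage before they make myelin. The basic helix-loop-helix proteins OLIG1 and OLIG2 and the HMG-box protein SOX10 are present across the lineage, SOX8 acts beside SOX10, and the homeodomain protein NKX2-2 is known for setting when precursors begin to differentiate. These 5 are called identity factors here. NKX6-2, the membrane-released factor MYRF, the Wnt pathway effector TCF7L2 and the zinc finger protein ZEB2 act mostly as cells leave the precursor state and build myelin, and are called terminal differentiation factors. The division is one of emphasis, since SOX8, OLIG1 and NKX2-2 also act in differentiation.

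Messenger RNA was measured in primary oligodendrocyte cultures prepared from rats at postnatal day 1. One group of 3 samples received water-soluble cholesterol at 0.01 mM and the other group of 3 received PBS (phosphate-buffered saline), both for 12 h. No genetic change is named for either group, and strain, sex and pooling of animals are not given in the labels used here. Whether the 3 samples in each group are separate cultures is not in the labels, and p-values therefore cover only how far these samples vary, possibly for technical reasons alone. Water-soluble cholesterol is usually a complex with a cyclodextrin, and a control with the carrier alone was not analysed here. Library totals ran from 63769532 to 67656224 counts with cholesterol and from 68902794 to 70878378 with PBS. All libraries differed beyond counting noise. The chi-square statistic of the counts, divided by its degrees of freedom, was at least 14.3 between cholesterol libraries and at least 8.85 between PBS libraries. Among genes that mark the labelled cell type, the myelin protein gene Mbp stood at 10979 ± 1100 CPM with cholesterol and 5003 ± 142 CPM with PBS. The precursor receptor gene Pdgfra stood at 342 ± 19.7 CPM with cholesterol and 323 ± 4.61 CPM with PBS (SD, n = 3 each). Other such genes were much scarcer, among them Opalin (19.8 CPM with cholesterol, 5.06 with PBS) and Mal (1.23 CPM with cholesterol, 0.183 with PBS). The cultures also held RNA of astrocytes and microglia, whose values are given with the results they touch.

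Promoter sequences are shown for the 2 homeodomain genes that moved farthest in opposite directions and for Olig2, the next largest fall. Each is the stretch of 250 bases before the gene start in RefSeq annotation of GRCr8, read 5′ to 3′ on the strand of the gene, and 5 of the 9 members had such an entry. Nkx6-2 lies at chr1:203813123-203813372 on the minus strand, Nkx2-2 at chr3:155075623-155075872 on the minus strand and Olig2 at chr11:43961335-43961584 on the plus strand. Capitals mark any match, on either strand, to 8 motifs linked to these protein families or to promoters in general: CANNTG (E-box), CACCTG (the E-box form that ZEB proteins bind, a special case of the first), AACAATG (SOX), CTTTGAT (TCF), CTGGCAC (MYRF), CAAGTG (NK2 homeodomain), GGGCGG (GC box) and TATAAA.
Nkx6-2: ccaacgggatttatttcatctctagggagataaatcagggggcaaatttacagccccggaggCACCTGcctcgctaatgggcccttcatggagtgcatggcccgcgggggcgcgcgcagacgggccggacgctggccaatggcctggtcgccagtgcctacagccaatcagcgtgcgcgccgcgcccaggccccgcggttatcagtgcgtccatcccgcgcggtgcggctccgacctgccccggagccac
Nkx2-2: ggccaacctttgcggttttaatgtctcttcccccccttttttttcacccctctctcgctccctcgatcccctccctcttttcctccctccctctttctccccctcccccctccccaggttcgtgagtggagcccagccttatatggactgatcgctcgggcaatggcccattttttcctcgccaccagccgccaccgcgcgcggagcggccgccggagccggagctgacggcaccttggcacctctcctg
Olig2: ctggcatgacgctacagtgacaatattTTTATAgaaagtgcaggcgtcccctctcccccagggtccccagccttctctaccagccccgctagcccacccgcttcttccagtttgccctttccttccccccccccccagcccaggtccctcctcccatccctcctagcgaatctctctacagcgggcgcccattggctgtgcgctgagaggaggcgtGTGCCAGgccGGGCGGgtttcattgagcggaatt
The Nkx6-2 window held 1 match, CACCTG, whose first base lies at -188 from the start. Of 33465 RefSeq windows of the same length, 15.9% held that motif and 65.5% held any CANNTG. Nkx2-2 held none of the 8 motifs. Olig2 held 1 match each to CTGGCAC at -34, GGGCGG at -24 and TATAAA at -223, which were present in 3.78%, 30.5% and 12.9% of windows. Among the other members with an entry, Zeb2 had 1 CANNTG at -181 and Tcf7l2 had 1 AACAATG at -111 and 6 GC boxes. Of all windows, 3.44% held AACAATG. All 5 windows except that of Zeb2 (47.6%) were richer in G and C than the median window (51.2%), with 62.0% in Olig2, 63.2% in Nkx2-2, 67.2% in Nkx6-2 and 73.6% in Tcf7l2. These matches describe the letters in a window and carry no measurement of binding.

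After 12 h with cholesterol, the lineage factors divided rather than moving together. Nkx6-2 rose 2.06-fold, Tcf7l2 rose by 20.2%, and Myrf and Sox8 rose by 11.1% and 7.30%. Nkx2-2 fell by 32.4%, Olig2 fell by 21.6% and Zeb2 fell by 15.1%, while Olig1 and Sox10 did not pass the test. In edgeR's quasi-likelihood test, with Benjamini-Hochberg adjustment over all 16182 genes and a threshold of 0.05, 4 of the 9 were higher and 3 lower. Over all genes tested, 40.3% passed, 20.5% as higher and 19.7% as lower (3325 and 3189 genes, or 2517 and 4157 with each library scaled to its median). Cholesterol and PBS libraries did not overlap in 8 of the 9 members, and in 52.3% of all genes. The median log2 fold change of the 9 was -0.03, against 0.0053 over all genes tested. With that scaling, Sox8 and Myrf were no longer called, Olig1 and Sox10 were called lower, and the count was 2 higher and 5 lower. It was 2 higher and 3 lower without cholesterol replicate 1, PBS replicate 1, PBS replicate 2 or PBS replicate 3.

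**Figure D1:**
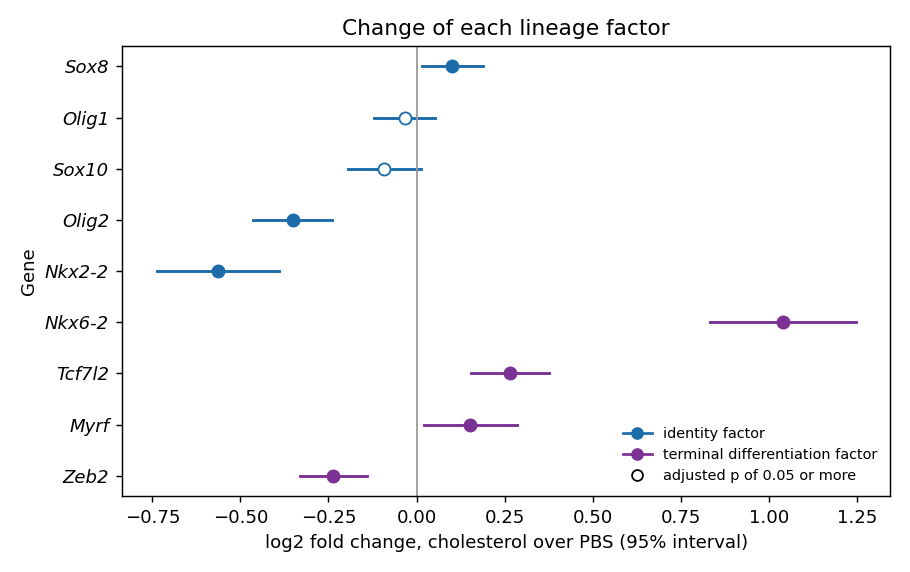
The log2 fold change of each of the 9 lineage factors (x axis, cholesterol over PBS) with its 95% interval, identity factors above and terminal differentiation factors below; open circles did not pass an adjusted p of 0.05. Nkx6-2 stands apart at 1.04, and Nkx2-2 at -0.56 and Olig2 at -0.35 lie farthest to the left.

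Levels of different genes are compared in FPKM, a unit that corrects for gene length and library size. With cholesterol, the order was Olig1 (389 ± 9.81 FPKM, SD, n = 3), Sox10 (244 ± 11.2), Myrf (132 ± 8.84), Olig2 (98.3 ± 4.06), Sox8 (95.1 ± 1.23), Nkx2-2 (72.2 ± 7.28), Zeb2 (52.0 ± 1.17), Tcf7l2 (42.2 ± 1.84) and Nkx6-2 (21.9 ± 1.13). Olig2 and Sox8 were the one neighbouring pair whose libraries overlapped. With PBS, the order was Olig1 (394 ± 2.62 FPKM, SD, n = 3), Sox10 (258 ± 5.13), Olig2 (124 ± 4.04), Myrf (118 ± 2.32), Nkx2-2 (106 ± 3.30), Sox8 (87.9 ± 1.10), Zeb2 (60.7 ± 1.33), Tcf7l2 (34.8 ± 0.384) and Nkx6-2 (10.6 ± 0.704), and no neighbours overlapped. Myrf thus stood above Olig2 in cholesterol libraries and below it in PBS libraries, and Sox8 stood above Nkx2-2 with cholesterol and below it with PBS. Most of these genes were among the most abundant of the cultures. In mean FPKM over all 6 libraries, Olig1 was above 99.6% of tested genes, Sox10 above 99.1%, and Nkx6-2, the lowest, above 74.7%.

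**Figure D2:**
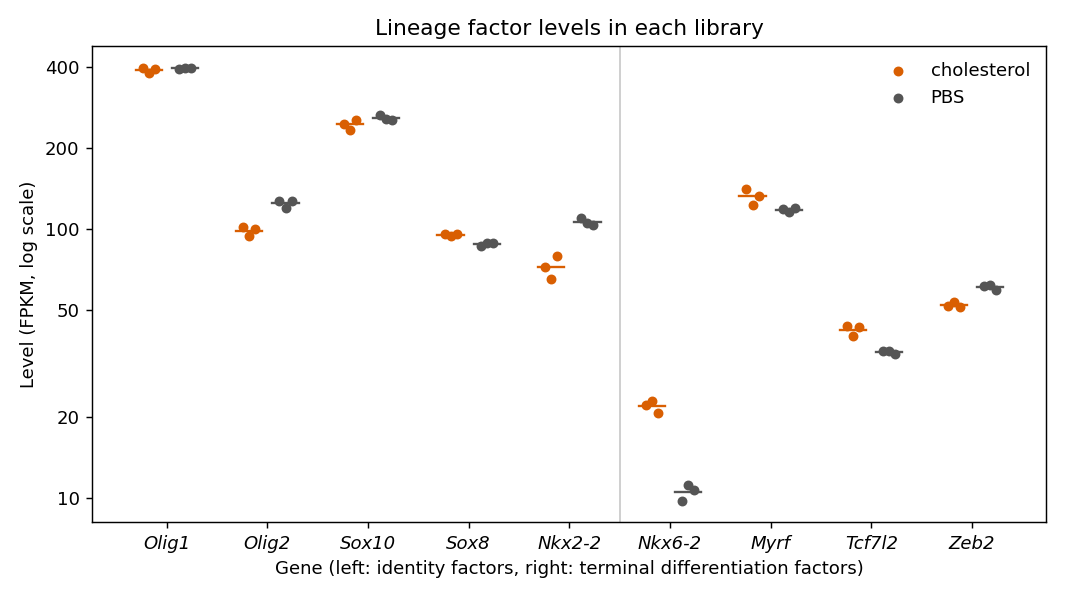
Levels of the 9 lineage factors in FPKM (y axis, log scale) in the 3 cholesterol and 3 PBS libraries; each point is a library and each bar the group mean. The 3 cholesterol points of Nkx6-2 sit between 20.6 and 22.9, above PBS points between 9.78 and 11.2, while those of Olig1 overlap with PBS.

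Among the identity factors, Nkx2-2 changed most. The gene (chromosome 3, positions 134620039 to 134622411, minus strand, as deposited) had 72.1, 64.9 and 79.5 FPKM in cholesterol libraries, against 110, 105 and 103 FPKM in PBS libraries. All cholesterol values lay below all PBS values, and cholesterol libraries were more spread than PBS libraries. The log2 fold change fitted on the counts was -0.56 ± 0.063 (SE, edgeR adjusted p = 7.1e-05), lower than that of all but 7.42% of genes tested. Bulk RNA cannot tell fewer cells of a type from less RNA per cell, for this gene and for those that follow.

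Olig2 and Olig1, which lie side by side on chromosome 11 (positions 30475398 to 30480152 and 30514379 to 30516521, both on the plus strand), stood at different sides of the threshold. Olig2, needed for the lineage to form, had 101, 93.7 and 99.7 FPKM with cholesterol, against 127, 120 and 127 FPKM with PBS. Its groups did not overlap, and the log2 fold change was -0.35 ± 0.041 (SE, edgeR adjusted p = 9.2e-05). Olig1, its close relative, had 397, 378 and 391 FPKM with cholesterol and 392, 395 and 397 FPKM with PBS, values that overlapped. Its log2 fold change was -0.03 with a 95% interval of -0.12 to 0.05 (edgeR adjusted p = 0.438). The ratio of Olig2 to Olig1 in FPKM, which does not depend on library scaling, was 0.256, 0.248 and 0.255 with cholesterol, against 0.323, 0.303 and 0.319 with PBS. That is a log2 difference of -0.32 with all cholesterol ratios below all PBS ratios (exact two-sided permutation p = 0.1, the smallest that 3 against 3 allows).

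Sox10 and Sox8, both HMG-box proteins that bind the same kind of site, differed between groups by small amounts, and Sox8 alone of the pair passed the test, as higher. Sox10 (chromosome 7, positions 110725274 to 110735544, minus strand) had 246, 232 and 254 FPKM with cholesterol, against 264, 256 and 255 FPKM with PBS. On the TMM-scaled CPM used in the test its groups did not overlap, but it did not pass, at a log2 fold change of -0.09 and a 95% interval of -0.20 to 0.01 (edgeR adjusted p = 0.0761). Without cholesterol replicate 3 it passed as lower (log2 fold change -0.12, edgeR adjusted p = 0.0302), and it came to -0.06 on the log2 scale when cholesterol replicate 2 was left out (adjusted p = 0.171). Sox8 (chromosome 10, positions 14584829 to 14589818, minus strand) had 95.9, 93.6 and 95.6 FPKM with cholesterol, against 86.6, 88.4 and 88.6 FPKM with PBS. These groups stood apart with little spread, and the log2 fold change of 0.10 ± 0.032 (SE) passed narrowly (edgeR adjusted p = 0.0259). Its adjusted p was 0.0797 without cholesterol replicate 1, and 0.114, 0.0737 and 0.0698 without PBS replicates 1, 2 and 3. With a correction for gene length, Sox8 did not pass (adjusted p = 0.0956) and Sox10 did, as lower (adjusted p = 0.0166). The ratio of Sox8 to Sox10 was 0.390, 0.403 and 0.376 with cholesterol and 0.328, 0.346 and 0.348 with PBS, a log2 difference of 0.19 with no overlap (exact permutation p = 0.1).

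Cholesterol replicate 2 was the lowest of the 3 cholesterol libraries for each of the 5 identity factors in FPKM, and also for Myrf and Tcf7l2. It was the highest for Nkx6-2 and Zeb2. Without it, the calls for all 9 members were as with all libraries, though the log2 fold change of Sox10 was nearer 0.

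Nkx6-2 showed the largest change of any lineage factor. This homeodomain gene (chromosome 1, positions 194381975 to 194383515, minus strand), known from mice to be needed for normal contact of myelin with axons beside the node of Ranvier, had 22.1, 22.9 and 20.6 FPKM in cholesterol libraries, against 9.78, 11.2 and 10.7 FPKM in PBS libraries. The lowest cholesterol library was well above the highest PBS library, on 1804 to 2117 counts with cholesterol and 950 to 1054 with PBS. Its fold change was 2.06, or 1.04 ± 0.074 on the log2 scale (SE, edgeR adjusted p = 5.2e-06), and 97.1% of genes tested had a lower value. The ratio of Nkx6-2 to Nkx2-2 was 0.307, 0.352 and 0.260 with cholesterol, against 0.0892, 0.107 and 0.104 with PBS, a log2 difference of 1.61 without overlap (exact permutation p = 0.1).

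Tcf7l2, the effector of Wnt signalling that marks newly forming oligodendrocytes and in mice also promotes cholesterol synthesis genes, rose moderately. It lies on chromosome 1 (positions 254786091 to 254978967, plus strand) and had 43.5, 40.1 and 43.0 FPKM with cholesterol, against 35.0, 35.1 and 34.4 FPKM with PBS. Groups were clearly apart, with a log2 fold change of 0.27 ± 0.040 (SE, edgeR adjusted p = 4.4e-04). Myrf, which directly activates myelin genes, lies on chromosome 1 too (positions 206854175 to 206886157, minus strand) and had 141, 123 and 132 FPKM with cholesterol, against 118, 115 and 120 FPKM with PBS. All cholesterol values were higher, but the lowest of them was close to the PBS values. Its small rise (log2 fold change 0.15 ± 0.047, SE, edgeR adjusted p = 0.0258) was no longer called without cholesterol replicate 1 (adjusted p = 0.0939, log2 fold change 0.10) or without PBS replicate 1, 2 or 3 (0.0768, 0.103 and 0.0609).

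Zeb2 was the one terminal differentiation factor that fell. This repressor, which dampens BMP signalling by binding SMAD proteins, lies on chromosome 3 (positions 29218301 to 29345157, minus strand) and had 51.6, 53.3 and 51.0 FPKM with cholesterol, against 61.4, 61.6 and 59.2 FPKM with PBS. Cholesterol values formed a tight cluster below the PBS cluster, with a log2 fold change of -0.24 ± 0.034 (SE, edgeR adjusted p = 3.7e-04). Zeb2 is also expressed by microglia. The summed CPM of 15 microglial markers was 410, 511 and 391 with cholesterol, against 613, 634 and 623 with PBS. In each group, replicate 2 had both the highest microglial sum and the highest Zeb2. The remaining PBS replicates went opposite ways, with replicate 3 above replicate 1 in the sum and below it in Zeb2. Of these 15 markers 1 was higher (Trem2, 0.41) and 10 lower, against 20.5% and 19.7% of all genes, none was at 0 in all libraries, and their part in the fall of Zeb2 was not tested.

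Seen by role, the terminal differentiation factors had 3 of 4 members higher and 1 lower, with a median log2 fold change of 0.21. The identity factors had 1 of 5 higher and 2 lower, with a median of -0.09, where 20.5% of all genes were higher and 19.7% lower. Without cholesterol replicate 1 or any 1 of the 3 PBS libraries, Myrf and Sox8 were not called, and without cholesterol replicate 3 Sox10 was also called lower. As a description with no test, since the members were chosen with results known, the mean log2 CPM of differentiation factors minus that of identity factors was -1.06, -1.02 and -1.14 in cholesterol libraries, against -1.60, -1.53 and -1.57 in PBS libraries. Every cholesterol library was above every PBS library. The gap was smaller without Nkx6-2, when the same difference was -0.14, -0.14 and -0.21 with cholesterol and -0.42, -0.40 and -0.42 with PBS, and the median log2 fold change of the remaining 3 differentiation factors was 0.15. With Sox8 and Olig1 counted among the differentiation factors, the median was 0.13 and the difference was -0.31, -0.25 and -0.40 with cholesterol and -0.93, -0.83 and -0.86 with PBS, again without overlap.

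Ratios to Sox10, a gene expressed at all stages of the lineage, give each factor per unit of a lineage transcript within the same library. Sox10 itself was lower in every cholesterol library (log2 fold change -0.09, not passing), which shifts every ratio upward with cholesterol. Tcf7l2 relative to Sox10 was 0.177, 0.173 and 0.169 with cholesterol, against 0.133, 0.137 and 0.135 with PBS, a log2 difference of 0.36. Myrf relative to Sox10 was 0.572, 0.530 and 0.519 with cholesterol, against 0.448, 0.450 and 0.470 with PBS (log2 difference 0.24). Both ratios were higher in every cholesterol library than in any PBS library. The log2 difference was 1.13 for Nkx6-2, -0.48 for Nkx2-2, -0.26 for Olig2 and -0.14 for Zeb2, again without overlap, and 0.06 for Olig1, with overlap. Over the 10 ratios computed, including those of Olig2 to Olig1 and of Nkx6-2 to Nkx2-2, each ratio without overlap had an exact permutation p of 0.1 (0.111 adjusted over the 10), and Olig1 to Sox10 had an exact p of 0.3. This design cannot reach the threshold for a single ratio.

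**Figure D3:**
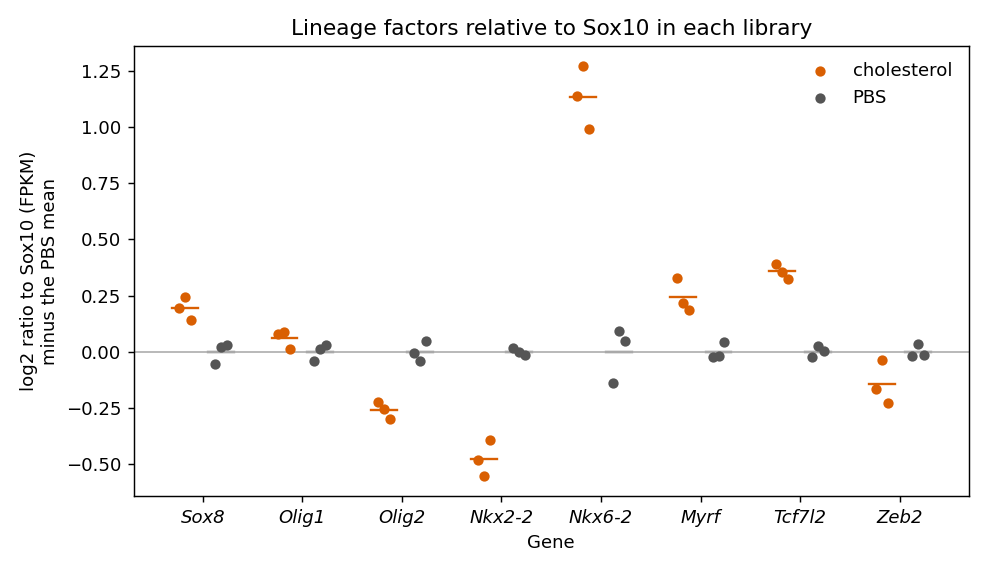
The log2 ratio of each factor to Sox10 (FPKM) in each library, minus the PBS mean of that ratio (y axis); points are the 3 cholesterol and 3 PBS libraries and bars are group means. Nkx6-2 is raised by 1.13 and Nkx2-2 lowered by 0.48, and the Olig1 groups overlap.

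The genes whose profile over the 6 libraries came closest to these extremes were sought among 9793 other genes with a mean of at least 10 CPM, by Euclidean distance of log2 CPM centred on each gene's mean. For Nkx6-2 they were Itm2a (distance 0.116, 24.8 CPM with cholesterol and 11.6 with PBS), Sybu (distance 0.116, 72.4 CPM with cholesterol and 37.0 with PBS) and Rpe65 (distance 0.127, 38.2 CPM with cholesterol and 17.6 with PBS). For Nkx2-2 they were Srgap1 (distance 0.0729, 40.3 CPM with cholesterol and 58.7 with PBS), Rtkn2 (distance 0.0769, 76.8 CPM with cholesterol and 115 with PBS) and Rcl1 (distance 0.0942, 22.3 CPM with cholesterol and 31.4 with PBS). With 2 groups of 3 libraries, such likeness rests mainly on the difference between groups.

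Other transcription factors of the lineage also went both ways. Of 38 listed, 37 were tested, 10 were higher, 11 lower and 16 did not pass, a share of 56.8% called against 40.3% of all genes, with a median log2 fold change of -0.04. The HMG-box genes Sox6 (72.3 ± 5.39 CPM with cholesterol, 126 ± 3.22 with PBS, SD, n = 3 each, log2 fold change -0.81) and Sox11 (37.7 ± 1.40 CPM with cholesterol, 51.1 ± 1.33 with PBS, -0.44), both known for holding cells in an immature state, fell. Zfp24 (-0.31), a zinc finger factor of myelination in mice, and Tcf12 (-0.22), a basic helix-loop-helix partner of the OLIG proteins, fell as well. Thyroid hormone drives oligodendrocyte maturation, and its receptor gene Thra rose (408 ± 15.9 CPM with cholesterol, 317 ± 9.79 with PBS, 0.36). Klf13 (0.28), Zfp536 (0.59) and Sox9 (0.60) rose too, the last of which is also an astrocyte marker. Thra and Zfp24 share part of their span with 1 further gene each. Among the markers named below, Cspg4 and Gpr17 do so with 1 each and Bcas1 with 2. The values of these genes are uncertain if strand was ignored in counting. None of the 9 lineage factors overlaps another gene in the deposited coordinates.

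All tested targets of MYRF or SOX10 rose. Of 13 listed, 12 had an entry in the table and 12 were higher, where 20.5% of all genes were. Their median log2 fold change was 0.97, with Nfasc lowest at 0.23 and Mobp highest. Mobp, a myelin protein gene, had 101 ± 12.6 CPM with cholesterol and 23.5 ± 0.980 with PBS (SD, n = 3 each). The summed CPM of these targets was 22762 to 26757 with cholesterol and 13324 to 13847 with PBS. The list was put together with myelin results of these data known and is no independent evidence. Of 15 tested genes of the pathways around ZEB2 and TCF7L2, 2 were higher, 6 lower and 7 did not pass, with a median of -0.18. Those called made up 53.3%, against 40.3% of all genes, where 20.5% were higher and 19.7% lower. The 2 that rose were Smad7 (0.22), a BMP pathway inhibitor that ZEB2 activates in mice, and the endothelin receptor gene Ednrb (0.46), which is also among the targets above. Tle3, a corepressor that binds TCF proteins, fell (104 ± 5.15 CPM with cholesterol, 146 ± 5.56 with PBS, -0.48), as did Id2 (-0.24), an inhibitor of basic helix-loop-helix proteins. The Wnt feedback gene Axin2 did not pass, at 5.68 ± 0.704 CPM with cholesterol and 6.96 ± 0.857 with PBS (edgeR adjusted p = 0.112).

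Marker genes of stages and of other cells moved in the same libraries as the lineage factors. Their counts stand beside 20.5% of all genes called higher and 19.7% called lower. Of 14 mature oligodendrocyte markers tested, 11 were higher, with Mal (2.73, at 1.23 CPM with cholesterol and 0.183 with PBS), Mobp and Opalin (1.97) farthest up, and 1 was lower (Ugt8, -0.13), with a summed level of 23217 to 27140 CPM with cholesterol and 14408 to 14840 CPM with PBS. Committed precursor markers had 2 of 8 higher (Rras2, 0.96, and Enpp6, 0.46) and 5 lower (Bcas1, Gpr17, Tnr, Fyn and Itpr2, from -0.39 to -0.18), and summed to 7206 to 7885 CPM with cholesterol and 9092 to 9188 CPM with PBS. Precursor markers had 3 of 9 higher, among them Cspg5 (0.77) and Cspg4 (0.26), and 4 lower (Xylt1, Sox6, Vcan and Ptprz1), with sums of 2209 to 2554 CPM with cholesterol and 2955 to 2989 CPM with PBS. Sox6, counted above, is in that list too. Most of the fall in the precursor sum was Vcan, at 600 ± 70.3 CPM with cholesterol and 977 ± 16.7 with PBS. The 2 precursor markers that did not pass were Pdgfra (0.08) and Gpr37l1 (-0.05), and the median log2 fold change of the list was -0.05. Astrocyte markers had 8 of 11 higher and 2 lower (Aldoc and Fgfr3), at 2729 to 3005 CPM with cholesterol and 1821 to 1832 CPM with PBS. Most of the rise in that sum was Gfap alone, at 1924 ± 109 CPM with cholesterol and 942 ± 9.67 with PBS. The microglial marker that fell most was Cx3cr1, the fractalkine receptor gene (12.9 ± 1.77 CPM with cholesterol, 42.1 ± 1.97 with PBS). Of 11 neuronal markers, Map2 alone passed, as lower (-0.46), and the sums were 1234 to 1290 CPM with cholesterol and 1304 to 1357 CPM with PBS. Without Map2 the sums overlapped, at 950 to 1010 CPM with cholesterol and 921 to 973 CPM with PBS. Endothelial and mural markers (Cdh5 and Pdgfrb higher, Pecam1 and Acta2 lower, of 7), fibroblast markers (Dcn and Pdgfrb higher, Col1a1 lower, of 6) and Schwann cell markers (Pmp22 and Cdh19 higher, Prx lower, of 6) each summed to at most 167 CPM in any library. No listed marker with an entry was at 0 in all libraries, and the part of these cell types in the changes of the lineage factors was not tested.

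**Figure D4:**
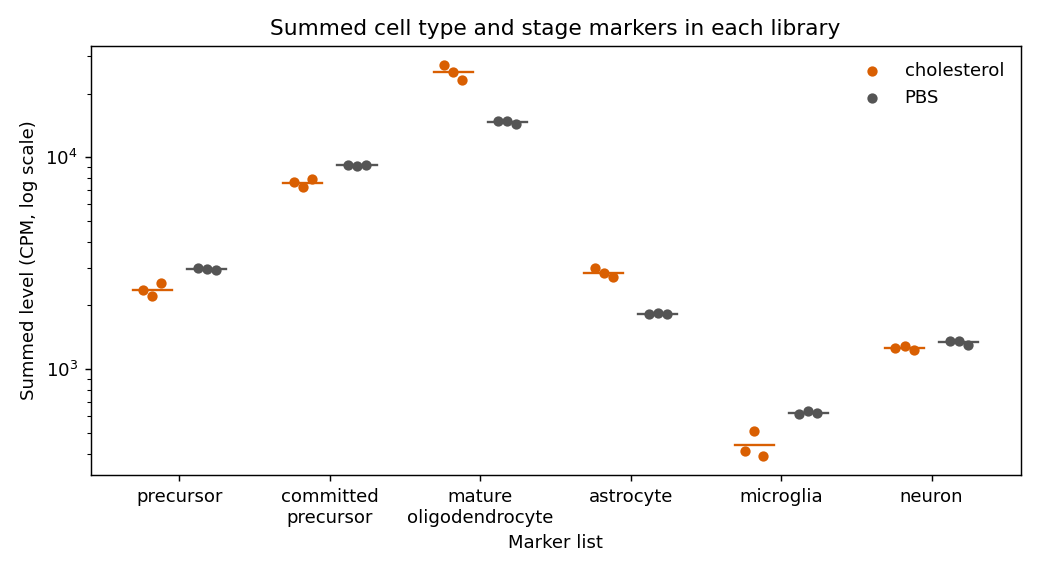
Summed CPM (y axis, log scale) of 6 marker lists in each of the 3 cholesterol and 3 PBS libraries; points are libraries and bars group means. Mature and astrocyte sums are higher with cholesterol, the astrocyte one mostly through Gfap. Precursor, committed precursor, microglial and neuronal sums are lower. The fall in the precursor sum is mostly Vcan. The neuronal sum is lower through Map2, without which its groups overlap.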

How the data were processed

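Poly(A) RNA from 6 rat oligodendrocyte samples was sequenced with strand-keeping dUTP libraries, per the labels' protocols. The authors deposited whole-number counts and FPKM per Ensembl gene in 1 table, per the file headers. Per the submitters' processing notes, rn6 is named as a build, and StringTie 2.1.6, HISAT2 2.2.1, cutadapt 1.9, edgeR and DESeq2 as tools, with no roles. Whether counting used the strand, and whether the deposited gene positions are of rn6, is not given in the sources used here, so they are printed as deposited. RefSeq windows are of GRCr8 and were matched by symbol.

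Groups came from the sample titles. The test was edgeR 4.0.16 (R 4.3.3) on the deposited counts (filterByExpr, TMM, glmQLFit and glmQLFTest, two-sided, no replicate term), and 4240 genes were left out as low. The SE is the log2 fold change over the root of F. The 95% intervals use 4 residual degrees of freedom, fewer than the edgeR test used, and are therefore wider than its p-values imply. CPM values are TMM-scaled. log2 CPM used a prior count of 0.5. The method was tested on simulated counts. Alternatives used DESeq2 1.42.0 and limma 3.58.1. Of columns with values per sample, 0 were left unused. Library totals of at least 63769532 counts leave little counting error for the members.

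The members, the gene lists, their division by role and the tests were chosen with earlier results of these data known. Named genes were all members, the 8 other lineage factors and 3 genes of each other list with the smallest p, and the 3 nearest profiles of the most raised and most lowered member. Genes that spell out a count of 5 or fewer were added, and Axin2, Pdgfra, Gemin2, Mal and Opalin were chosen after their values were seen. Some genes of these lists are not reported here.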

Additional observations from a re-analysis of the deposited data

How the results depend on the processing

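The calls of Nkx6-2, Nkx2-2, Olig2, Tcf7l2 and Zeb2 kept their direction and side of the threshold in all 16 alternatives. Nkx6-2 ranged from 0.96 to 1.08 in log2 fold change, Nkx2-2 from -0.64 to -0.49, Olig2 from -0.41 to -0.28, Tcf7l2 from 0.20 to 0.33 and Zeb2 from -0.30 to -0.18. The smaller changes depended on scaling. With scaling to the library median, which put the median of all genes at -0.06, 2 members were higher and 5 lower, Olig1 (-0.0947) and Sox10 (-0.153) passed, Sox8 (0.0399) and Myrf (0.0909) did not, and the medians were -0.153 for identity and 0.148 for differentiation factors. That scaling called 2517 genes higher and 4157 lower, against 3325 and 3189 with TMM. Quantile normalization gave a positive Olig1 (0.0286, not passing) and medians of -0.0059 and 0.26. The length correction gave 5 lower members, with Olig1 (-0.11) and Sox10 (-0.13) passing, Sox8 (0.0726) not, and an identity median of -0.13. The DESeq2 Wald test called Sox10 (-0.10). Moving Sox8 and Olig1 to the differentiation factors gave a median of 0.13, and leaving out Nkx6-2, an alternative chosen after seeing the data, 0.15. The summed neuron markers had a log2 ratio of -0.0834, and of 0.0447 without Map2, also chosen after seeing the data. Leaving out each library in turn gave 2 to 4 higher and 3 to 4 lower members, medians of -0.12 to -0.06 for identity and 0.17 to 0.25 for differentiation factors, and log2 fold changes of 0.0891 to 0.113 for Sox8, 0.0975 to 0.201 for Myrf and -0.118 to -0.0562 for Sox10. Deviations of same-numbered libraries correlated between -0.0452 and -0.0052. No shared culture is stated, so the main test had no replicate term, and whether same-numbered samples share a culture is not known. With the replicate block, Sox8 (0.10) was no longer called, and 6221 genes passed against 6514. All 10 ratios kept their sign in all 8 alternatives. The causes of these shifts were not tested.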
